A study of Mus musculus with 12 samples.

Results

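Solute carriers are the largest group of membrane transport proteins, and in the mouse many of their genes are named Slc, a family number, the letter a and a member number. Solute carrier genes with symbols of another form were not included, so the members and their classes do not cover the whole group. Of 21232 gene rows in the deposited count table, 330 had a symbol of that form, and the 188 with at least 100 read counts summed over the 12 libraries are described here as members. They belonged to 44 families, and their summed counts ran from 104 to 183673 with a median of 7359. Of the 142 rows below that sum, 41 had no count in any library. Just inside it lay Slc6a7 with 104 counts, Slc9a4 with 108 and Slc52a3 with 122, and just outside it Slc16a9 with 99, Slc12a8 with 93 and Slc5a7 with 91.

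RNA was sequenced from C2C12 cells, an established mouse myoblast line labelled as strain C57BL/6, whose cells fuse into myotubes when serum is lowered. There were 4 groups of 3 libraries, lettered A, B and C: proliferating myoblasts in growth medium with fetal bovine serum (0 h), control cells at 48 h in differentiation medium with horse serum, cells differentiated for 48 h with TNF alpha (TNF, an inflammatory cytokine) at 10 ng/ml, and cells with Fbxl2 silenced by siRNA, collected at 48 h of differentiation. Fbxl2 encodes an F-box protein, a substrate-binding subunit of a ubiquitin ligase. The labels do not say whether cells outside the siRNA group received a control siRNA, so silencing and transfection cannot be told apart, and medium, time and stage all differ between proliferation and control. They name no separate cultures behind the letters, so the p-values rest on library-to-library spread that may be only technical.

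Solute carriers use ion gradients, exchange or facilitated diffusion to move sugars, amino acids, organic acids, nucleosides, metals and inorganic ions across the plasma membrane, and the Slc25 family does the same across the inner mitochondrial membrane. In muscle they are known for glucose entry through Slc2 proteins, lactate and proton movement through Slc16a1 and Slc16a3, creatine and taurine uptake through Slc6a8 and Slc6a6, and exchange of ADP for ATP through Slc25a4 and Slc25a5. Leucine enters proliferating cells through Slc7a5, which works only as a pair with Slc3a2.

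The libraries held 26416978 to 32917763 counts, of which the members took 0.963% to 1.11%, and levels are given as counts-per-million values (CPM) on the TMM-scaled library total. Fbxl2 stood at 67.5% of control in the siRNA group (adjusted p = 1.67e-07). Its lowest control library was at 31.8 CPM. All proliferation and TNF libraries were also below that, with highest values of 27.2 and 29.7 CPM. The siRNA libraries, at 23.6 CPM or less, lay below those of every other group. How much of the lower value in the siRNA group is owed to silencing was not tested. The summed CPM of 6 myoblast and myotube markers lay between 1422 and 1569.7 in proliferation, 2691 and 2934 in control, 1219.8 and 1253 in TNF and 1939 and 2194 in siRNA libraries. Des was a large part of these sums, at a mean of 1095, 1201, 727 and 1276 CPM in the same order. Myog was at 22.5, 302, 79.9 and 104 CPM and Myh3 at 6.32, 737, 153 and 238. Both were thus higher in TNF than in proliferation, while Des, Myod1, Myf5 and Cdh15 were lower. Sums over endothelial, macrophage and epithelial markers were at most 2.93 CPM, and over adipocyte markers they lay between 2.78 and 13.7 CPM. Pparg made up nearly all of the adipocyte sums, at a mean of 13.2 CPM in proliferation, 5.97 in control, 3.12 in TNF and 9.16 in siRNA libraries. Group means of Adipoq, Plin1 and Fabp4 were at most 0.161 CPM. In bulk RNA, fewer cells of a type and less RNA per cell cannot be told apart, and the part that myogenic stage plays in the results below was not tested.

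Promoter sequences are shown for 4 members that hold 1 of 7 strings searched on both strands. They were chosen after their values were seen, as members that fell with differentiation and rose with TNF. RefSeq windows (GRCm38.p6) from 250 bases before to 50 bases after the start were given for 141 of the 188 members, 190 windows in all. The strings were the GC box GGGCGG, the E-box CAGCTG, the ATF4-type composite element TGATGNAA, the hypoxia response core ACGTGC, and, by name alone, a MEF2-type element, an interferon response core and a kB element. The stretches below run 5′ to 3′ from 150 bases before to 20 bases after the start. Capitals mark TGATGNAA on either strand in Slc7a11 (chr3:50443594-50443763, minus strand) and Slc1a4 (chr11:20332694-20332863, minus strand), and ACGTGC in Slc2a1 (chr4:119108595-119108764, plus strand) and Slc16a3 (chr11:120948917-120949086, plus strand).
Slc7a11: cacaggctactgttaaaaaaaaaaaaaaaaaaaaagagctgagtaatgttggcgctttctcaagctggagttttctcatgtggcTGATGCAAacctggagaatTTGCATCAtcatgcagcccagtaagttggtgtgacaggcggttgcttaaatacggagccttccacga
Slc1a4: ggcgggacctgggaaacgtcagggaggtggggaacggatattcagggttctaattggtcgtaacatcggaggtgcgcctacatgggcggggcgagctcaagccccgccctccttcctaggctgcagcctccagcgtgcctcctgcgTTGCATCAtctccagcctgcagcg
Slc2a1: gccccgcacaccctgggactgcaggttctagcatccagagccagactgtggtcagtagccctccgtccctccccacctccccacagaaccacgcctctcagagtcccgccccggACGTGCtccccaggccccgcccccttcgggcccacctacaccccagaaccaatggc
Slc16a3: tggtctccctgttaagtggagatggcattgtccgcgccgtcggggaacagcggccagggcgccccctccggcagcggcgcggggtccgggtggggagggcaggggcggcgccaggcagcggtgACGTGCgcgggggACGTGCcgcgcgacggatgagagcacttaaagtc

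The Slc7a11 window, of the cystine and glutamate exchanger, held 2 composite elements, which began 66 and 47 bases before the start. That of Slc1a4, a neutral amino acid exchanger, held 1 that began 4 bases before it. ACGTGC began 36 bases before the start in Slc2a1, the ubiquitous glucose transporter, and 27 and 14 bases before it in Slc16a3, the lactate exporter. TGATGNAA occurred in 3.68% of the members' windows, 2.29% of windows of all genes tested and 3.97% of all RefSeq windows, and in 6 members: Slc1a4, Slc7a11, Slc7a7, Slc9a9, Slc26a10 and Slc50a1. Of these 6, 3 fell and 2 rose with differentiation, 3 rose and 2 fell with TNF, and 2 both fell with differentiation and rose with TNF. ACGTGC occurred in 7.37%, 8.01% and 5.91% of the same sets, with 12 members among them, a lower share in the members than in tested genes as a whole. Of these 12, 6 fell and 5 rose with differentiation, 7 rose and 2 fell with TNF, and 5 both fell with differentiation and rose with TNF, so the sequences shown do not stand for all holders of either string. Over all 188 members 71 fell and 78 rose with differentiation, and 69 rose and 43 fell with TNF. Of all genes tested, 38.9% fell and 38.4% rose with differentiation, and 31% rose and 23.6% fell with TNF. Genes that did both were counted among the holders only, so no excess can be read from those counts. GGGCGG was present in 70.5% of the members' windows against 61.3% of those of tested genes and 35.7% of all. The remaining shares, for members, tested genes and all windows, were 18.4%, 16% and 16.3% for CAGCTG, 5.79%, 3.05% and 3.69% for the MEF2-type element, 2.11%, 3.11% and 3.44% for the interferon response core and 6.84%, 5.33% and 4.51% for the kB element. A match describes letters in the window only, and binding was not measured.

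Levels of different members were compared per kilobase of merged exons in GENCODE M21 gene models (GRCm38). The highest in control was Slc25a5, an adenine nucleotide translocator of the mitochondrial inner membrane, at 146 ± 2.38 CPM per kilobase (SD, n = 3). Slc29a1, the equilibrative nucleoside transporter, followed at 128 ± 2.28 and lay close to Slc25a4, the muscle and heart adenine nucleotide translocator, at 126 ± 1.58. Those 3 were followed by Slc6a6, the taurine transporter, at 89.1 ± 2.78 and Slc25a3, the mitochondrial phosphate carrier, at 83.3 ± 1.88. The zinc transporters Slc39a7 and Slc39a1 came next at 74.9 ± 1.81 and 68.7 ± 0.704, then the glutamine and alanine transporter Slc38a2 at 58.8 ± 0.907. Slc25a24 at 57.7 ± 0.727 did not differ from Slc38a2 beyond the spread, and the tenth member, the peroxisomal carrier Slc25a17, stood at 44.5 ± 1.01.

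In this order 5 mitochondrial-family members were among the 10 highest in control, while the median over all 188 members was 4.17 CPM per kilobase. With the longest transcript as the length, 9 of the 10 highest in control stayed among the 10 highest, but Slc29a1 ranked 1 and Slc25a5 ranked 2. In proliferating cells Slc25a5 again led, at 329 ± 21.2 CPM per kilobase, followed by Slc25a4 at 165 ± 5.3 and the zinc exporter Slc30a4, named after its values were seen, at 129 ± 5.04. Slc7a5 ranked 6 in proliferation at 72.9 ± 17.4 and 24 in control at 22.1 ± 1.78. Slc20a1, the sodium-dependent phosphate transporter, ranked 26 in control at 20.8 ± 0.379 and 10 in TNF at 46.8 ± 1.73. Processed copies of the adenine nucleotide translocator genes exist in the genome, and how the authors' counting treated such copies is not given in the sources used here. Between 17 and 22 members stood below 1 CPM in each group, the insulin-responsive glucose transporter Slc2a4 had only 81 counts in all 12 libraries together, and the exchanger Slc8a3 had 30, so neither was a member.

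**Figure D1:**
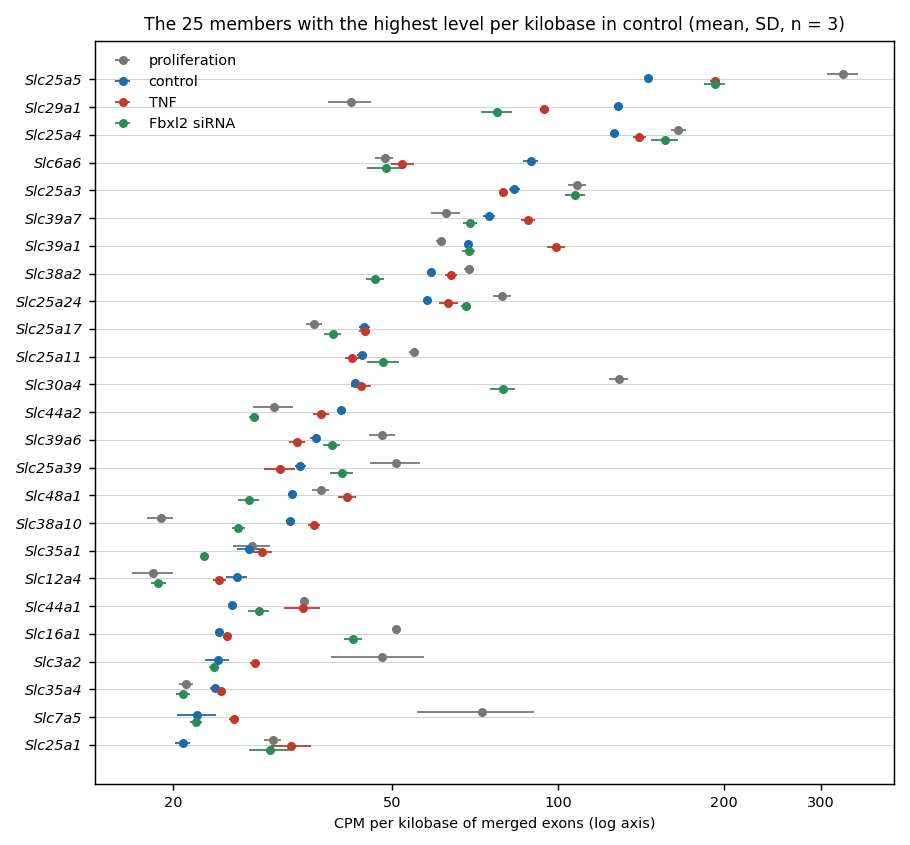
Level per kilobase of merged exons, on a log axis, of the 25 members highest in control; points are group means and bars the SD over 3 libraries. By this length Slc25a5 leads in every group, from 145.7 in control to 329 in proliferation, and Slc29a1, Slc30a4 and Slc7a5 are the members whose proliferation points lie farthest from control.

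Proliferating myoblasts were compared with control cells to ask which transporters change as C2C12 cells differentiate. Falls included those of the inositol transporter Slc5a3 (4.33-fold), the glucose transporter Slc2a1 (3.37-fold) and the amino acid transporter Slc7a5 (3.29-fold). Rises among members that reached 5 CPM in either group included those of the cationic amino acid transporter Slc7a2 (8.06-fold), the iron exporter Slc40a1 (7.87-fold) and the lysosomal hexose transporter Slc2a6 (10.8-fold). By edgeR's quasi-likelihood test at a Benjamini-Hochberg adjusted p under 0.05 over 12736 genes, 78 members rose and 71 fell in control, where 38.4% of all genes rose and 38.9% fell. The 79.3% of members called is close to the 77.2% of all genes tested, and the members' median log2 fold change was 0.03 against -0.00 over all genes. At 2-fold or more, 23 rose and 24 fell, against 12.1% and 8.25% of all genes (20.3% in either direction). The 3 libraries of each group did not overlap in 149 members, 79.3% against 79.2% of all genes tested.

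Among the 12 sugar and polyol transporters 4 rose and 3 fell. Slc2a1 (chr4:119108711-119137983) stood at 218, 211 and 234 CPM in proliferation libraries A, B and C and at 64, 67.8 and 65.3 in control. All 3 proliferation libraries were above all 3 control libraries, and the log2 fold change was -1.75 (SE 0.05, adjusted p = 1.98e-17). The myo-inositol transporter Slc5a3 went from 88.9, 90.9 and 88.4 CPM to 19.7, 19.7 and 22.7, again without overlap (log2 -2.11, SE 0.06, adjusted p = 2.97e-17). Its gene model shares 159 exon bases on the same strand with Mrps6, a mitochondrial ribosomal protein gene, which gave -1.72, so their reads may not be fully separate. Slc2a6 rose from 0.789, 0.931 and 0.789 CPM to 8.6, 9.44 and 8.99 (log2 3.43, SE 0.17, adjusted p = 1.45e-13). Slc2a3, the neuronal-type glucose transporter, was at 4.72 ± 0.366 and 4.36 ± 0.196 CPM (SD, n = 3), and its libraries overlapped (adjusted p = 0.432). The summed CPM of this class was 395 ± 14.4 in proliferation and 195.7 ± 3.38 in control (SD, n = 3).

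Of the 9 transporters of monocarboxylates and other organic acids 7 fell and 1 rose, with a class median log2 fold change of -1.02. Slc16a1, the lactate and pyruvate transporter, was at 221, 228 and 225 CPM in proliferation and 109, 107 and 106 in control (log2 -1.06, SE 0.04, adjusted p = 4.54e-15). Slc16a3 had 45.3, 54 and 52.6 CPM and 24.1, 22.8 and 23.8 CPM (log2 -1.10, SE 0.08, adjusted p = 4.66e-11). Every control library was therefore below every proliferation library for both lactate transporters. Slc16a11 fell by more, from 21.6, 18.3 and 21.1 to 6.14, 6.86 and 6.58 CPM (log2 -1.64, SE 0.09, adjusted p = 1.83e-12). The class sum was 333 ± 6.78 CPM in proliferation and 167.8 ± 2.79 in control (SD, n = 3). Both lactate carriers need a partner protein to reach the membrane: Emb, which encodes embigin, was lower in control by a log2 fold change of -1.34 (adjusted p = 3.87e-14), and Bsg, basigin, had -0.09 (adjusted p = 0.0769).

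Amino acid and peptide transporters split, with 15 of 30 higher and 12 lower. Slc7a5, the large neutral amino acid transporter, was at 337, 208 and 266 CPM in proliferation and 89.7, 78.6 and 77.9 in control (log2 -1.72, SE 0.15, adjusted p = 2.97e-06). Its heavy chain Slc3a2 was at 205, 142 and 159.7 and 89.4, 84.4 and 81 CPM (log2 -0.99, SE 0.10, adjusted p = 2.5e-06). The cationic amino acid transporter Slc7a1 was at 168, 119.7 and 144 and 57.6, 56.5 and 53.9 CPM (log2 -1.36, SE 0.09, adjusted p = 1.12e-08). In these genes, and in the neutral amino acid exchangers Slc1a4 and Slc1a5, proliferation library A was highest and B lowest, and even B lay above all control libraries. Slc1a4 fell from 82.1 ± 17 to 36.7 ± 0.678 CPM (log2 -1.16, adjusted p = 6.88e-06) and Slc1a5 from 39.3 ± 7.57 to 14 ± 0.814 (log2 -1.50, adjusted p = 3.51e-09). Slc7a11 had a narrow spread, 60.1, 62.7 and 59.5 CPM in proliferation and 25.7, 27.9 and 28.1 in control (log2 -1.16, SE 0.06, adjusted p = 2.41e-13). Slc38a2 changed less, from 609 ± 12.2 to 519.9 ± 8.01 CPM (log2 -0.23, adjusted p = 7.92e-05). Atf4, which encodes a transcription factor known to act on amino acid transporter genes, fell as well, from 518 ± 59 CPM in proliferation to 211 ± 7.84 in control and gave a log2 value of -1.29 (adjusted p = 2.35e-13).

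Other members of the class rose. Slc7a2 (chr8:40862396-40922308) went from 5.16, 4.43 and 4.44 CPM in proliferation to 38, 38.1 and 37.3 in control (log2 3.01, SE 0.08, adjusted p = 1.49e-17). The glial-type glutamate transporter Slc1a3 went from 13.7 ± 0.367 to 31.4 ± 1.28 CPM (log2 1.20, SE 0.10, adjusted p = 7.61e-09). Slc6a19, a neutral amino acid transporter known from kidney and gut, had 1 count over the 3 proliferation libraries and 156 over the 3 control libraries, a ratio of 152 with a counting interval (95%) of 26.9 to 6048, and it reached only 1.74 ± 0.144 CPM in control. The lysosomal peptide transporter Slc15a3 fell from 2.76, 2.08 and 2.56 to 0.18, 0.244 and 0.216 CPM (log2 -3.52, SE 0.31, adjusted p = 1.93e-09). Its exons share 1541 bases with Tmem132a on the opposite strand, a gene with a log2 fold change of -0.02 here, and the use of strand in counting is not given in the sources used here.

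Taurine and creatine transporters rose. Slc6a6 was at 409, 394 and 425 CPM in proliferation and 778, 753 and 731 in control, with no overlap (log2 0.88, SE 0.06, adjusted p = 7.39e-12). Slc6a8, the creatine transporter, went from 60.9, 57.9 and 61.1 to 97.5, 102 and 98.9 CPM (log2 0.73, SE 0.05, adjusted p = 1.18e-11). Slc6a2, the noradrenaline transporter in the same class of 4, had 5 counts over the proliferation libraries and 73 over control, and the vesicular monoamine transporter Slc18a2 had a log2 fold change of -0.03 (adjusted p = 0.868). Among enzymes that make and use creatine, Ckm, the muscle creatine kinase, rose from 0.992 ± 0.349 to 53.9 ± 4.4 CPM. Gamt, which makes creatine, had a log2 fold change of 0.51 (adjusted p = 3.54e-07), and the creatine kinase Ckb 0.30 (adjusted p = 1.01e-05). Gatm, which also acts in creatine synthesis, did not pass (log2 0.007, adjusted p = 0.919).

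Mitochondrial-family carriers numbered 40, of which 14 rose and 19 fell, with a median of -0.09. Slc25a5 was at 504, 573 and 549 CPM in proliferation and 244, 237 and 239 in control (log2 -1.18, SE 0.05, adjusted p = 1.52e-14). Slc25a4 was at 375, 397 and 396 and 293, 298 and 300.3 CPM (log2 -0.39, SE 0.05, adjusted p = 2.43e-07). Both translocators thus fell without overlap, the first by more. Slc25a3 and the aspartate and glutamate carrier Slc25a12 had log2 fold changes of -0.38 and -0.47 (adjusted p = 1.94e-07 and 1.11e-08). The carnitine carrier Slc25a20 rose by 0.16 (adjusted p = 0.0344), a call lost without any 1 of 4 of the 6 libraries, and mitoferrin Slc25a37 gave -0.15 (adjusted p = 0.0491), a call lost in all the other scalings, tools and filters tried. The summed CPM of the class was 3007 ± 55.5 in proliferation and 2307 ± 11.6 in control (SD, n = 3).

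Ion, metal and nucleoside transporters moved in several directions. Both sodium-calcium exchangers rose: Slc8a1 went from 5.92, 5.06 and 5.75 to 20.8, 22 and 20.5 CPM (log2 1.91, SE 0.09, adjusted p = 8.99e-14), and Slc24a3, named after its values were seen, from 3.19 ± 0.287 to 20.2 ± 1.14 CPM (log2 2.66). Slc12a2, the sodium, potassium and chloride cotransporter, rose (log2 0.67, adjusted p = 4.12e-07). Of 23 acid-base and chloride transporters 10 rose and 7 fell. Of 24 metal transporters 14 rose and 8 fell. Slc40a1, the iron exporter ferroportin (chr1:45908068-45926523), was at 19.8, 19.5 and 18 CPM in proliferation and 151, 149 and 152 in control (log2 2.98, SE 0.06, adjusted p = 3.58e-19). The lowest control library was above the highest proliferation library by a wide margin. The iron importer Slc11a2 and the zinc exporter Slc30a1 rose (0.59 and 0.50, adjusted p = 9.7e-10 and 1.94e-06), and the zinc and iron importer Slc39a14 fell (-0.65, adjusted p = 3.06e-11). Slc29a1 went from 183, 152 and 169 to 514, 524 and 506 CPM (log2 1.61, SE 0.06, adjusted p = 1.12e-15). Slc20a1 fell slightly, from 137 ± 4.75 to 116 ± 2.12 CPM (log2 -0.24, adjusted p = 6.23e-05).

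The urea transporter Slc14a1 had the largest fall of the members, from 16.2, 17.8 and 17 CPM to 1.59, 1.39 and 1.08 (log2 -3.63, SE 0.12, adjusted p = 3.85e-16). Slc44a4, of the choline transporter-like family, had 9 counts over the proliferation libraries and 225 over control, a ratio of 24.4 with a counting interval of 12.6 to 54.02. In the remaining classes 5 of 10 lipid, choline and bile acid transporters rose and 2 fell, 4 of 7 organic ion transporters rose and 2 fell, 3 of 4 nucleoside transporters rose and 1 fell, and 1 of 7 phosphate transporters rose and 4 fell. No vitamin transporter of 8 rose and 3 fell, and 2 of 6 nucleotide sugar and acetyl-CoA transporters rose and 1 fell. Of 43 tested genes that work with the transporters (sodium pump subunits, chaperones, enzymes and regulators), 13 rose and 22 fell. Over all genes tested 38.4% rose and 38.9% fell. Ldha, the lactate dehydrogenase subunit that favours lactate, went from 1099.6 to 435 CPM.

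**Figure D2:**
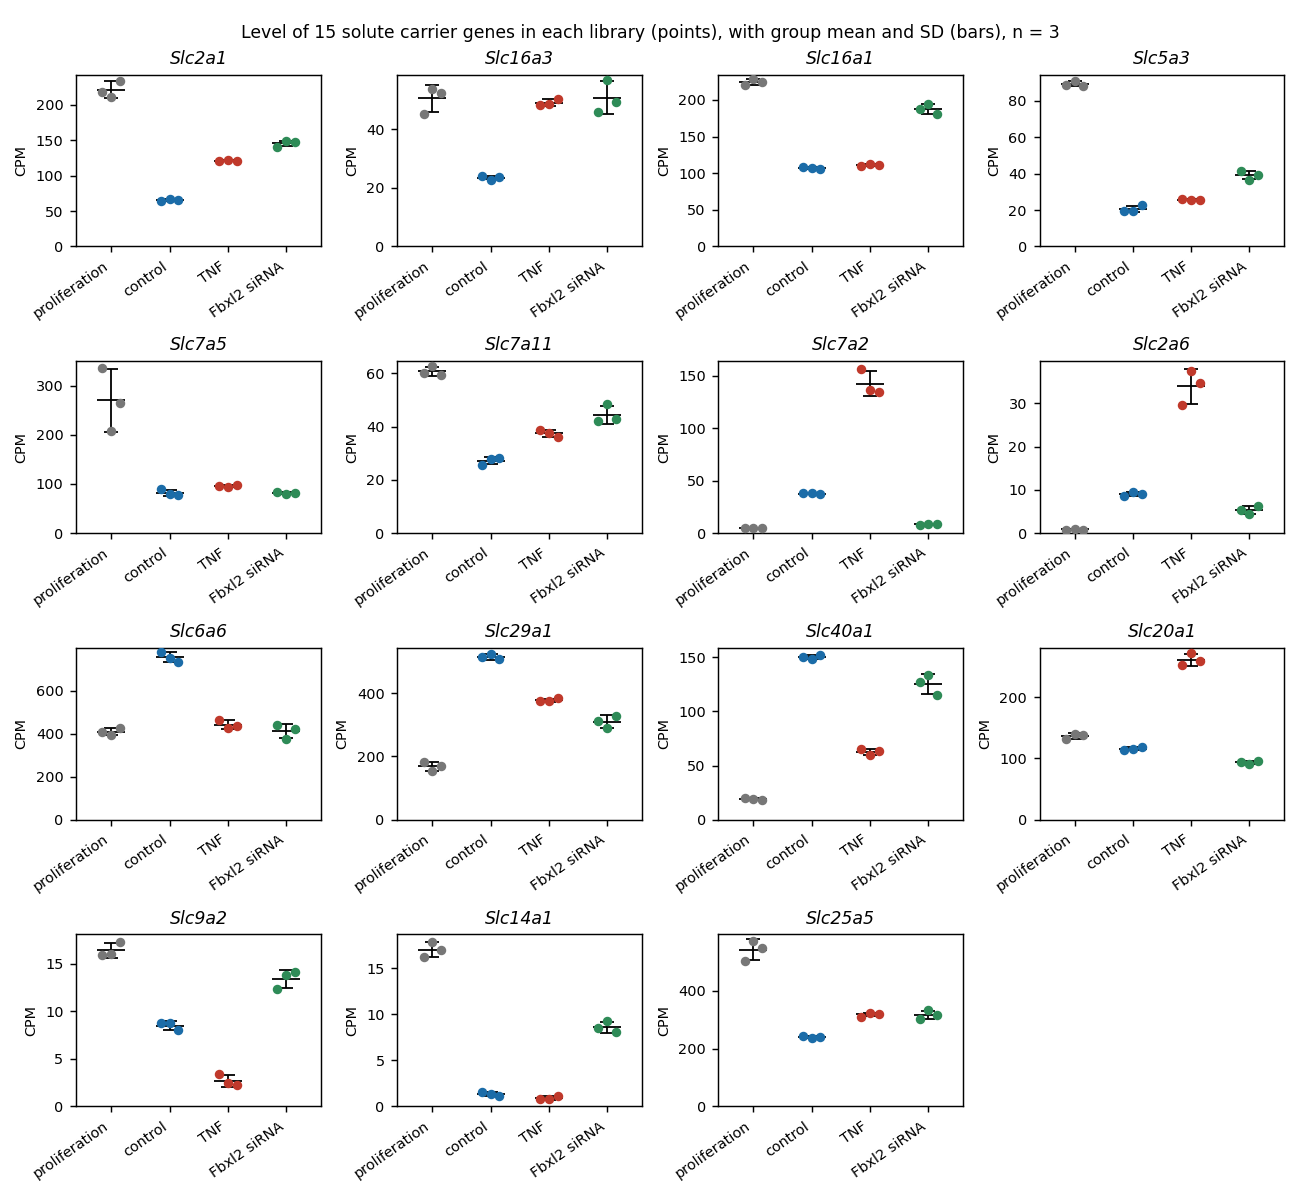
CPM of 15 members in each library (points), with the group mean and SD (bars), for proliferation, control, TNF and Fbxl2 siRNA. Slc2a1, Slc16a3, Slc5a3, Slc7a11 and Slc25a5 are lowest in control, while Slc7a2 and Slc2a6 are highest in TNF and Slc6a6 and Slc29a1 are highest in control.

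TNF-treated cells were compared with control cells to ask what the cytokine changes at 48 h of differentiation. Among members that reached 5 CPM in either group the rises included those of Slc7a2 (3.78-fold), Slc2a6 (3.76-fold), Slc20a1 (2.25-fold) and Slc16a3 (2.08-fold), and the largest falls those of Slc37a2 (3.2-fold), Slc9a2 (3.14-fold), Slc40a1 (2.4-fold) and Slc1a3 (2.14-fold). Of 188 members 69 rose and 43 fell, where 31% of all genes rose and 23.6% fell (59.6% of members called against 54.6% of all genes tested), and the median log2 fold change was 0.04 against 0.03 over all genes. With library totals alone as the scaling, 53 rose and 59 fell, so that 47.3% rather than 61.6% of calls were rises, and without the letter C libraries of all groups 43 rose. The splits by class below use TMM scaling and were not recounted under the others. At 2-fold or more 12 rose and 10 fell, against 4.83% and 5.19% of all genes (10% in either direction). The libraries of TNF and control did not overlap in 127 members, 67.6% against 64.7% of all genes tested.

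Sugar and polyol transporters were mostly higher, 7 of 12 against 3 lower. Slc2a1 was at 121, 122 and 121 CPM in TNF libraries A, B and C against 64, 67.8 and 65.3 in control (log2 0.88, SE 0.05, adjusted p = 1.93e-12). Slc2a6 was at 29.6, 37.5 and 34.6 CPM, all above the highest control library at 9.44 (log2 1.91, SE 0.10, adjusted p = 6.55e-13). Slc5a3 rose from 20.7 ± 1.74 to 25.7 ± 0.43 CPM (log2 0.32, adjusted p = 0.000233), and the urate and glucose transporter Slc2a9 from 0.796 ± 0.162 to 1.5 ± 0.225 CPM (log2 0.91, adjusted p = 0.00338). Slc2a3 was lower, at 3.45, 2.76 and 3.86 CPM (log2 -0.37, adjusted p = 0.0216), a call lost without control B, without TNF B, and without all libraries of letter A or of letter B. The class sum was 291 ± 6.26 CPM in TNF against 195.7 ± 3.38 in control (SD, n = 3).

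Of the lactate transporters 1 rose and 1 did not pass the test. Slc16a3 was at 48.4, 48.6 and 50.4 CPM in TNF against 24.1, 22.8 and 23.8 in control (log2 1.06, SE 0.08, adjusted p = 2.73e-10), and Slc16a1 at 109, 112 and 112 against 109, 107 and 106 (log2 0.05, interval -0.04 to 0.13, adjusted p = 0.363). Ldha rose from 435 to 748.7 CPM. Of the partner proteins' genes, Emb gave 0.02 (adjusted p = 0.785) and Bsg rose by 0.18 (adjusted p = 0.00242). Slc16a4 and the aromatic amino acid transporter Slc16a10 fell (log2 -0.37 and -0.64, adjusted p = 0.0418 and 0.00218). In the class of 9, 3 rose and 2 fell.

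Among 30 amino acid and peptide transporters 14 rose and 5 fell, with a median log2 fold change of 0.18. Slc7a2 was at 156, 137 and 135 CPM in TNF against 38, 38.1 and 37.3 in control (log2 1.92, SE 0.06, adjusted p = 1.47e-16). The lowest TNF library was far above the highest control library. Slc1a5 rose from 13.1, 14.2 and 14.6 to 20.1, 20.4 and 21.2 CPM (log2 0.56, SE 0.11, adjusted p = 0.000636), and Slc7a11 from 25.7, 27.9 and 28.1 to 38.7, 37.6 and 36 (log2 0.46, SE 0.06, adjusted p = 1.59e-06). Slc1a4 rose from 36.7 ± 0.678 to 52.2 ± 3.98 CPM (log2 0.51, adjusted p = 0.00642), with an adjusted p of 0.0752 without the letter C libraries. Slc3a2, Slc7a5 and Slc7a1 did not pass, with log2 fold changes of 0.23, 0.22 and 0.17 (adjusted p = 0.0914, 0.249 and 0.144), although the libraries of TNF and control did not overlap in any of them. Fitted on TNF and control libraries alone, all 3 passed (adjusted p = 0.000502, 0.00292 and 0.0111), and Slc3a2 also with DESeq2 and limma-voom (adjusted p = 0.0395 and 0.0411). Slc38a2 was at 564 ± 14.2 CPM (log2 0.12, adjusted p = 0.0279), a call lost with RLE scaling, library totals alone or no filter, and without any 1 of 5 of the 6 libraries. Atf4 rose to 295 ± 1.67 CPM, at a log2 value of 0.48 (adjusted p = 2.08e-06).

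Among the falls in this class was that of Slc1a3, at 16.7, 12.5 and 14.6 CPM in TNF against 29.96, 32.2 and 32.1 in control (log2 -1.10, SE 0.10, adjusted p = 5.64e-08). Slc6a19 fell from 1.74 ± 0.144 to 0.808 ± 0.125 CPM (log2 -1.10, adjusted p = 0.0011). At the low end of the scale, Slc15a3 rose from 0.18, 0.244 and 0.216 to 0.768, 1.03 and 1.31 CPM (log2 2.26, SE 0.37, adjusted p = 2.35e-05). Tmem132a, which overlaps it, gave -0.28 in the same comparison.

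The taurine transporter Slc6a6 fell, and the creatine transporter Slc6a8 did not pass the test. Slc6a6 was at 465, 425 and 434 CPM in TNF against 778, 753 and 731 in control (log2 -0.77, SE 0.06, adjusted p = 1.86e-10), and its highest TNF library was below the lowest control library. Slc6a8 was at 99.7, 106 and 107 CPM against 97.5, 102 and 98.9 and overlapped (log2 0.06, interval -0.03 to 0.15, adjusted p = 0.26). Creatine kinase Ckm fell from 53.9 ± 4.4 to 11.5 ± 1.17 CPM, and the creatine synthesis enzymes Gatm and Gamt gave log2 fold changes of -1.07 (adjusted p = 1.88e-11) and -0.95 (adjusted p = 1.23e-10).

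Of the 40 mitochondrial-family carriers 14 rose and 6 fell. Mitoferrin Slc25a37, which imports iron, was at 130.1, 152 and 137 CPM against 81.3, 85.6 and 85.6 (log2 0.73, SE 0.07, adjusted p = 1.71e-08). Slc25a5 was at 310.4, 324 and 319 CPM against 244, 237 and 239 (log2 0.41, SE 0.05, adjusted p = 7.03e-07). Neither overlapped with control. Slc25a12 and Slc25a4 rose by 0.35 and 0.15 (adjusted p = 1.82e-06 and 0.00944), the latter not with library totals alone or without the letter C libraries (adjusted p = 0.0804 and 0.152). Slc25a3 and Slc25a20 gave -0.07 and -0.12 (adjusted p = 0.218 and 0.149), and both passed as lower with library totals alone (adjusted p = 0.0232 and 0.0362). The mitochondrial glutamate carrier Slc25a18 rose from 0.419, 0.104 and 0.252 to 0.736, 1.54 and 1.13 CPM (log2 2.06, SE 0.43, adjusted p = 0.000386).

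Metal transporters were mostly higher, 14 of 24 against 4 lower, where 31% of all genes rose and 23.6% fell. Slc11a2, an importer of ferrous iron, was at 102, 103 and 106 CPM in TNF and 69.6, 68.9 and 69.8 in control (log2 0.58, SE 0.05, adjusted p = 1.7e-09). Slc39a14 was at 80.4, 78.1 and 79.99 CPM against 60.1, 60.7 and 57.1 (log2 0.42, SE 0.04, adjusted p = 6.78e-08). Slc40a1, the only known cellular iron exporter, was at 65, 59.4 and 63.3 CPM against 151, 149 and 152 (log2 -1.26, SE 0.05, adjusted p = 4.67e-14). None of these 3 genes overlapped between the groups, with the importers higher and the exporter lower. Slc30a1 fell (log2 -0.27, adjusted p = 0.0027). The metal-binding metallothionein genes Mt1 and Mt2 gave 0.68 (adjusted p = 5.87e-08) and 1.74 (adjusted p = 2.34e-16), and the iron store subunits Fth1 and Ftl1 gave 0.04 (adjusted p = 0.514) and 0.22 (adjusted p = 0.00515). Tfrc and Steap3, other genes of iron uptake, did not pass (log2 0.003 and -0.08, adjusted p = 0.992 and 0.197).

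Slc20a1 (chr2:129198764-129211616), which imports phosphate with sodium, was at 252, 271 and 259 CPM in TNF against 114, 116 and 118 in control (log2 1.17, SE 0.04, adjusted p = 6.29e-15). Slc37a2, a sugar phosphate exchanger of the endoplasmic reticulum, was at 2.81, 2.79 and 2.44 CPM against 8.51, 9.37 and 7.95 (log2 -1.68, SE 0.11, adjusted p = 2.49e-11). These were the largest moves in each direction among the 7 phosphate and sugar phosphate transporters, of which 4 rose and 3 fell. The proton exchanger Slc9a2 was at 3.36, 2.46 and 2.23 CPM against 8.72, 8.78 and 7.98 (log2 -1.65, SE 0.12, adjusted p = 2.34e-10), and the sodium bicarbonate cotransporter Slc4a4 at 4.35, 5.44 and 4.11 against 1.02, 1.18 and 1.26 (log2 2.01, SE 0.16, adjusted p = 9.9e-10). Slc12a2 gave -0.03 with an interval of -0.18 to 0.12 (adjusted p = 0.744). Of the 23 in that class 4 rose and 8 fell. Slc8a1 fell from 21.1 ± 0.789 to 14.2 ± 1.71 CPM (log2 -0.57, adjusted p = 4.56e-06), and Slc24a3 gave -0.09 (adjusted p = 0.345).

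Slc29a1 fell from 514, 524 and 506 to 373, 375 and 383 CPM (log2 -0.45, SE 0.06, adjusted p = 9.95e-07), and 1 of the 4 nucleoside transporters rose while 2 fell. The steroid sulphate transporter Slc10a6 rose from 0.243 ± 0.0312 to 1.7 ± 0.205 CPM, the largest log2 fold change of the members (2.77, SE 0.26, adjusted p = 1.07e-08). Slc44a4 fell from 2.51 ± 0.3 to 0.615 ± 0.188 CPM (log2 -2.005, SE 0.24, adjusted p = 3.71e-07). These changes at the extremes concern genes below 3 CPM in both groups. Slc14a1, near 1 CPM in both groups, gave -0.58 (adjusted p = 0.0194) with overlapping libraries. Elsewhere 4 of 10 lipid, choline and bile acid transporters rose and 2 fell, no organic ion transporter of 7 rose and 3 fell, 2 of 8 vitamin transporters rose and 1 fell, and 1 of 6 nucleotide sugar and acetyl-CoA transporters rose. Among the 43 partner genes 15 rose and 15 fell, where 31% of all genes rose and 23.6% fell. The sodium pump beta subunit Atp1b1 was at 9.19 ± 0.988 CPM against 24.4 ± 1.8 in control.

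**Figure D3:**
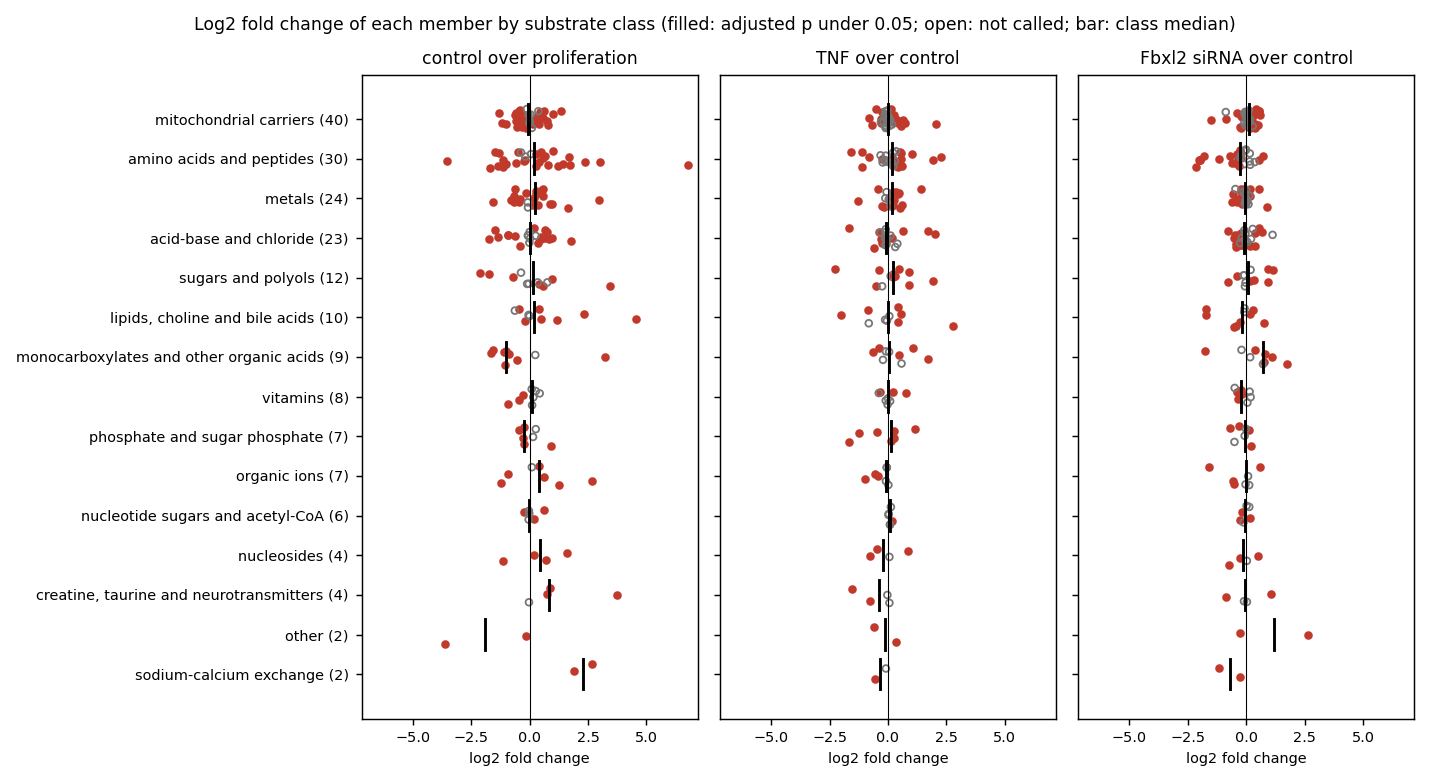
Log2 fold change of every member by substrate class (number of members in brackets) for control over proliferation, TNF over control and Fbxl2 siRNA over control; filled points passed at adjusted p under 0.05 and black bars are class medians. The median of the monocarboxylate class is at -1.02 in the differentiation panel and at 0.72 in the siRNA panel, and that of the amino acid class is at -0.27 in the siRNA panel.

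Fbxl2-silenced cells were compared with control cells to ask what changes where this mRNA is lowered. The protein was not measured. The members that rose at least 2-fold were Slc14a1 (6.29-fold), Slc16a4 (3.31-fold), Slc2a1 (2.22-fold), Slc16a3 (2.16-fold) and Slc6a2 (2.08-fold). Falls among members that reached 1 CPM were led by Slc7a2 (4.5-fold), Slc1a3 (4.03-fold) and Slc6a19 (3.53-fold), and amino acid transporters as a class were mostly lower. Of 188 members 47 rose and 67 fell, 60.6% against 63.9% of all genes, and the median log2 fold change was -0.04 against 0.03 over all genes. By direction, 34.1% of all genes rose and 29.8% fell. Without the letter C libraries of all groups 31 members rose. At 2-fold or more 5 rose and 12 fell, against 5.03% and 5.07% of all genes (10.1% in either direction), and the libraries did not overlap in 124 members, 66% against 72.8% of all genes tested. The controls are the same libraries as in the comparisons above, so fold changes set side by side below share them.

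Among the 30 amino acid and peptide transporters 2 rose and 17 fell, with a median log2 fold change of -0.27, and the class sum was 1228 ± 27.4 CPM against 1506 ± 10.5 in control (SD, n = 3). Slc7a2 was at 8.03, 8.68 and 8.47 CPM in the siRNA libraries A, B and C against 38, 38.1 and 37.3 in control (log2 -2.17, SE 0.07, adjusted p = 4.26e-15). The siRNA level lay between those of proliferation, 4.68 ± 0.421 CPM, and control. Slc1a3 was at 8.17, 6.02 and 9.27 CPM against 29.96, 32.2 and 32.1 (log2 -2.01, SE 0.11, adjusted p = 5.76e-11). Slc38a2, the most abundant of the class, was at 422, 394 and 417 CPM against 526, 511 and 523 (log2 -0.34, SE 0.04, adjusted p = 1.08e-06). These 3 fell with no overlap of libraries. Slc6a19 fell from 1.74 ± 0.144 to 0.498 ± 0.28 CPM (log2 -1.82, adjusted p = 1.34e-05).

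The 2 members of the class that rose were Slc7a11, at 42.1, 48.3 and 42.7 CPM (log2 0.71, SE 0.06, adjusted p = 2.62e-09), and Slc1a5, at 18.9, 21.2 and 20.3 CPM (log2 0.53, SE 0.12, adjusted p = 0.000827). Slc3a2, Slc7a5 and Slc7a1 gave -0.02, -0.01 and -0.08 (adjusted p = 0.86, 0.964 and 0.498), with intervals of -0.23 to 0.18, -0.30 to 0.29 and -0.27 to 0.11. Slc1a4 gave 0.17 (adjusted p = 0.285), and 42.9, 42 and 38.8 CPM in the siRNA libraries lay just above the control libraries at 37.2, 35.9 and 36.9. Fitted on the siRNA and control libraries alone, Slc1a4 passed at 0.0122. Atf4 rose to 287 ± 17.3 CPM, at a log2 value of 0.45 (adjusted p = 4.49e-06).

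Slc2a1 was at 141, 148 and 147 CPM against 64, 67.8 and 65.3 in control (log2 1.15, SE 0.05, adjusted p = 5.93e-14). Slc5a3 was at 41.6, 36.8 and 39.4 CPM against 19.7, 19.7 and 22.7 (log2 0.93, SE 0.06, adjusted p = 5.76e-11), with Mrps6 at 0.80. Both stood between control and proliferation, where they had 221 ± 12 and 89.4 ± 1.29 CPM. Slc2a9 rose to 1.53 ± 0.355 CPM (log2 0.95, adjusted p = 0.00196), a call lost without the letter A libraries (adjusted p = 0.0727). Slc2a3 gave 0.35 (adjusted p = 0.0174), lost with DESeq2, without control C, siRNA A or siRNA B, and without the letter A libraries. Slc2a6 fell to 5.29, 4.32 and 6.24 CPM from 8.6, 9.44 and 8.99 (log2 -0.77, SE 0.12, adjusted p = 9.62e-06). Of the 12 sugar and polyol transporters 5 rose and 2 fell.

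Of the 9 monocarboxylate-class transporters 5 rose and 1 fell, with a median log2 fold change of 0.72. Slc16a1 was at 188, 195 and 181 CPM against 109, 107 and 106 (log2 0.81, SE 0.04, adjusted p = 1.9e-12). Slc16a3 was at 46, 57.1 and 49.5 CPM against 24.1, 22.8 and 23.8 (log2 1.11, SE 0.08, adjusted p = 1.34e-10). Slc16a4 was at 9.87, 11.3 and 9.57 CPM against 2.91, 2.93 and 3.49 (log2 1.73, SE 0.12, adjusted p = 1.31e-10). In each of these 3 genes all siRNA libraries lay above all control libraries. Slc16a10 rose from 3.17 ± 0.273 to 5.38 ± 0.856 CPM (log2 0.75, adjusted p = 9.03e-05), and Slc16a11 gave -0.20 (adjusted p = 0.117). The class sum was 276.5 ± 12.99 CPM against 167.8 ± 2.79 in control (SD, n = 3). Ldha was at 983.9 CPM against 435 in control, and Emb and Bsg gave 0.52 (adjusted p = 4.46e-07) and 0.28 (adjusted p = 2.69e-05).

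Slc6a6 was at 439.6, 377 and 419 CPM against 778, 753 and 731 in control (log2 -0.87, SE 0.06, adjusted p = 3.22e-11), close to its proliferation level of 409 ± 15.3. Slc6a8 gave -0.10 (adjusted p = 0.0755), with 95, 88.7 and 95.6 CPM against 97.5, 102 and 98.9; it passed with RLE scaling, library totals alone, DESeq2, no filter and a fit of these 2 groups alone (adjusted p = 0.024, 0.0272, 0.0241, 0.0299 and 0.016). Slc6a2 rose from 0.809, 0.801 and 0.827 to 1.81, 1.53 and 1.74 CPM (log2 1.06, SE 0.21, adjusted p = 0.000185). The enzymes of creatine split, with Gatm higher (log2 0.28, adjusted p = 0.000567). Gamt, Ckb and Ckm were lower (log2 -0.45, -0.84 and -0.77, adjusted p = 3.76e-06, 9.61e-12 and 5.46e-05).

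Mitochondrial-family carriers were more often higher, 16 of 40 against 7 lower, with a median of 0.10. Slc25a3 was at 582, 624 and 583 CPM against 474, 461 and 453 (log2 0.37, SE 0.05, adjusted p = 5.91e-07). Slc25a5 and Slc25a4 were at 303, 332 and 315 and 348, 390.1 and 365 CPM (log2 0.40 and 0.31, adjusted p = 6.81e-07 and 1.1e-05). The 3 most abundant carriers by CPM therefore all rose, none by more than 1.32-fold. Slc25a37 rose from 84.2 ± 2.45 to 118 ± 6.4 CPM (log2 0.48, adjusted p = 3.67e-06). Slc25a12 and Slc25a20 gave 0.04 and -0.08 (adjusted p = 0.518 and 0.296). Slc25a23, a calcium-regulated carrier of ATP and phosphate, fell from 2.67, 2.02 and 2.62 to 1.03, 0.749 and 0.794 CPM (log2 -1.51, SE 0.20, adjusted p = 1.9e-06). The class sum was 2710.0 ± 77.3 CPM against 2307 ± 11.6 (SD, n = 3). The outer membrane channels Vdac1, Vdac2 and Vdac3 gave 0.33 (adjusted p = 1.03e-06), 0.22 (adjusted p = 0.000392) and 0.21 (adjusted p = 0.000776).

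Metal transporters gave 4 rises and 9 falls among 24. Slc11a2 was at 52, 52.9 and 53.7 CPM against 69.6, 68.9 and 69.8 (log2 -0.39, SE 0.05, adjusted p = 6.92e-07), and Slc40a1 at 127, 134 and 116 against 151, 149 and 152 (log2 -0.26, SE 0.05, adjusted p = 0.000204). Slc30a1 fell by a little (log2 -0.24, adjusted p = 0.00536), and Slc39a14 gave 0.02 with an interval of -0.07 to 0.11 (adjusted p = 0.672). Slc30a4, named after its values were seen, rose from 235 ± 2.33 to 435 ± 22 CPM (log2 0.89). Mt1 and Mt2 gave -0.46 (adjusted p = 1.4e-05) and -0.60 (adjusted p = 3.31e-08), and Ftl1 gave 0.65 (adjusted p = 1.54e-08). Fth1 gave 0.25 (adjusted p = 5.52e-05), while Tfrc and Steap3 did not pass (log2 -0.06 and -0.07, adjusted p = 0.828 and 0.223).

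Slc29a1 was at 312, 289.9 and 329 CPM against 514, 524 and 506 (log2 -0.73, SE 0.06, adjusted p = 7.53e-10). Slc20a1 fell from 116 ± 2.12 to 94 ± 2.29 CPM (log2 -0.30, adjusted p = 6.99e-06), and Slc12a2 from 65.3 ± 4.36 to 48 ± 5.1 (log2 -0.45, adjusted p = 7.92e-05). Slc8a1 gave -0.26 (adjusted p = 0.00754), a call lost without the letter C libraries (adjusted p = 0.0671), and Slc24a3 fell by 1.16 on the log2 scale. Slc9a2 rose from 8.49 ± 0.442 to 13.4 ± 0.943 CPM (log2 0.66, adjusted p = 3.88e-06). The urea transporter Slc14a1 was at 8.45, 9.26 and 8.09 CPM against 1.59, 1.39 and 1.08 (log2 2.65, SE 0.13, adjusted p = 9.29e-13), with every siRNA library above every control library and below every proliferation library. Slc44a4 fell from 2.51 ± 0.3 to 0.772 ± 0.275 CPM (log2 -1.71, adjusted p = 1.74e-06). In the classes not yet named, rises and falls were 5 and 9 of 23 for acid-base and chloride, 3 and 5 of 10 for lipids, choline and bile acids, 1 and 2 of 4 for nucleosides, 1 and 3 of 7 for organic ions, 2 and 2 of 7 for phosphate, 0 and 4 of 8 for vitamins, and 1 and 2 of 6 for nucleotide sugars and acetyl-CoA. Of the 43 partner genes 20 rose and 13 fell, where 34.1% of all genes rose and 29.8% fell, and Atp1b1 was at 9.19 ± 1.12 CPM.

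**Figure D4:**
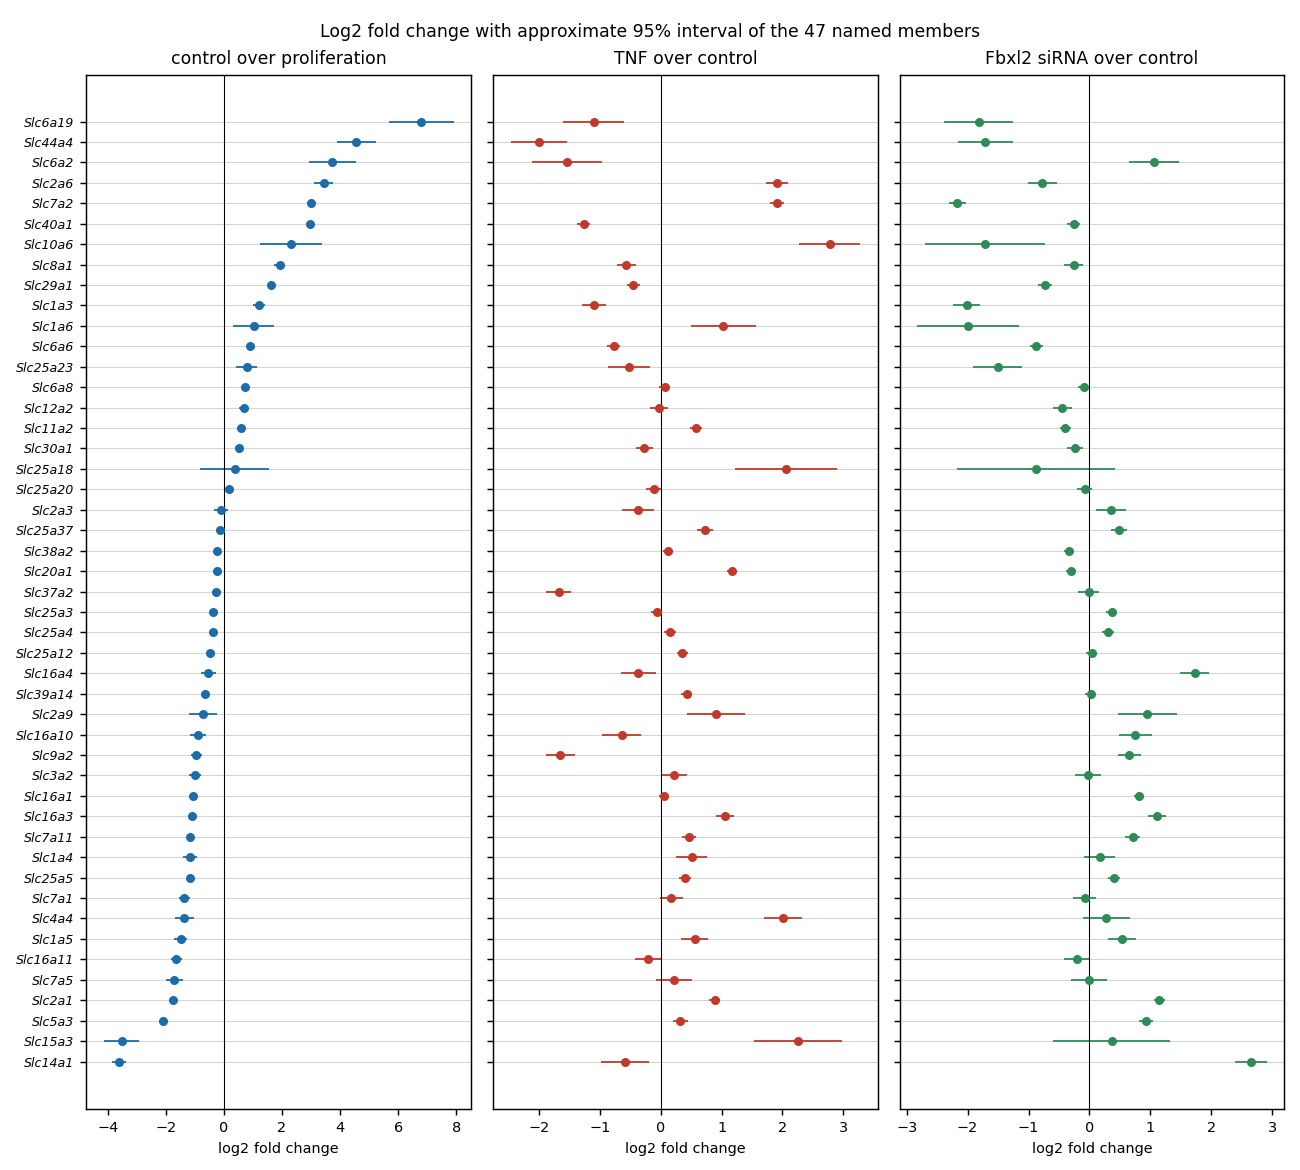
Log2 fold change and approximate 95% interval of 47 named members for control over proliferation, TNF over control and Fbxl2 siRNA over control, ordered by the differentiation value. Slc7a2 and Slc2a6 lie right of 0 in the TNF panel and left of it in the siRNA panel, and Slc2a1 and Slc16a3 lie right of 0 in both; the TNF and siRNA panels share the control libraries.

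The TNF and siRNA groups were compared with each other to ask where the responses to these agents differ. The control libraries are not compared here, but they enter through the shared estimate of spread, the scaling and the filter. Slc7a2 (17-fold), Slc2a6 (6.43-fold) and Slc20a1 (2.78-fold) were higher with TNF, and Slc14a1 (9.4-fold), Slc9a2 (4.95-fold) and Slc16a4 (4.27-fold) were higher with the siRNA. Of 188 members 76 were higher and 45 lower in TNF, 64.4% against 60.5% of all genes, and the members' median was 0.10 against -0.01 over all genes. By direction, 29.9% of all genes were higher and 30.6% lower. At 2-fold or more 14 were higher and 9 lower, against 5.43% and 5.18% of all genes (10.6% in either direction), and the libraries did not overlap in 129 members, 68.6% against 66.3% of all genes tested.

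Amino acid and peptide transporters were higher in TNF in 18 of 30 and lower in 2, with a median of 0.41. Slc7a2 was at 156, 137 and 135 CPM with TNF and 8.03, 8.68 and 8.47 with the siRNA (log2 4.09, SE 0.07, adjusted p = 8.89e-21). Slc38a2 and Slc1a3 were higher with TNF by 0.46 and 0.91 (adjusted p = 1.62e-08 and 4.17e-06). Slc7a11 was lower (log2 -0.25, adjusted p = 0.00118), and Slc1a5 gave 0.03 with an interval of -0.19 to 0.24 (adjusted p = 0.845). Slc1a4 and Slc7a1 gave 0.34 and 0.25 (adjusted p = 0.0411 and 0.0371), calls lost with library totals alone, no filter, or without most of the libraries. Slc3a2 and Slc7a5 gave 0.25 and 0.23 (adjusted p = 0.0602 and 0.219), both of which passed in a fit of these 2 groups alone (adjusted p = 7.93e-05 and 0.000208), Slc3a2 also with RLE scaling, DESeq2 and limma-voom (adjusted p = 0.0446, 0.00762 and 0.0241). The glutamate transporter Slc1a6, at 1.09 ± 0.246 CPM with TNF and 0.131 ± 0.0407 with the siRNA, gave 3.02 (adjusted p = 6.06e-07).

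Among sugar and lactate transporters, Slc16a3 gave -0.05, with an interval of -0.19 to 0.09 and overlapping libraries (adjusted p = 0.562), while Slc16a1 was lower with TNF (log2 -0.76, SE 0.04, adjusted p = 2.44e-12). Lower with TNF were also Slc2a1 (log2 -0.26, adjusted p = 4.86e-05), Slc5a3 (-0.61, adjusted p = 2.4e-08) and Slc2a3 (-0.72, adjusted p = 6.26e-05). Slc2a6 was higher with TNF, at 33.9 ± 4.0 against 5.28 ± 0.959 CPM (log2 2.69, SE 0.10, adjusted p = 6.72e-15). Slc16a4 and Slc16a10 were lower with TNF (log2 -2.09 and -1.39, adjusted p = 9.36e-12 and 1.05e-07).

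Of the mitochondrial-family carriers 10 were higher and 16 lower with TNF. Slc25a5 gave 0.004 with an interval of -0.09 to 0.10 (adjusted p = 0.946), Slc25a20 gave -0.04 (adjusted p = 0.672), and Slc25a3 was lower (log2 -0.43, SE 0.05, adjusted p = 5.77e-08). Slc25a12 and Slc25a37 were higher by 0.32 and 0.24 (adjusted p = 7.1e-06 and 0.00348), and Slc25a4 was lower (log2 -0.15, adjusted p = 0.00893). Without the letter C libraries neither Slc25a37 nor Slc25a4 passed (adjusted p = 0.0633 and 0.109), and Slc25a4 was also lost without siRNA B (adjusted p = 0.0608). Slc25a18 was at 1.14 ± 0.404 CPM with TNF and 0.144 ± 0.0728 with the siRNA (log2 2.94, SE 0.50, adjusted p = 4.07e-05).

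Slc6a6 gave 0.10 with an interval of -0.01 to 0.21 (adjusted p = 0.128), and Slc6a8 was higher with TNF by 0.16 (adjusted p = 0.00561), a call lost without the letter B or letter C libraries. Slc6a2 was lower with TNF (log2 -2.60, SE 0.26, adjusted p = 3.25e-08). Of 24 metal transporters 12 were higher and 5 lower: Slc11a2 gave 0.97, Slc39a14 0.40 and Slc40a1 -1.005 (adjusted p = 4.19e-13, 1.47e-07 and 1.46e-12), and Slc30a1 gave -0.03 (adjusted p = 0.75). Slc20a1 was at 261 ± 9.63 against 94 ± 2.29 CPM (log2 1.47, SE 0.05, adjusted p = 1.16e-16), and Slc37a2 at 2.68 ± 0.208 against 8.56 ± 0.63 (log2 -1.67, SE 0.11, adjusted p = 2.29e-11). Slc29a1 and Slc12a2 were higher with TNF (0.28 and 0.41, adjusted p = 0.00025 and 0.000197), and Slc8a1 was lower (-0.31, adjusted p = 0.00301). Slc9a2 was lower with TNF, at 2.68 ± 0.595 against 13.4 ± 0.943 CPM (log2 -2.31, SE 0.11, adjusted p = 3.13e-13), and Slc14a1 at 0.915 ± 0.221 against 8.6 ± 0.596 (log2 -3.23, SE 0.15, adjusted p = 7.31e-14). Slc10a6 had 147 counts over the TNF libraries and 6 over the siRNA libraries, a ratio of 23.7 with a counting interval of 10.6 to 65.7. Among the 43 partner genes 5 were higher with TNF and 22 lower, where 29.9% of all genes were higher and 30.6% lower. Mt2 was at 91.2 ± 5.27 CPM with TNF and 18.1 ± 0.568 with the siRNA.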

How the data were processed

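Read counts per gene were deposited by the authors for 12 RNA-seq libraries (poly(A) RNA, Illumina mRNA-Seq kit per the labels' protocols). CASAVA, DESeq2 and the mm10 build are named in the submitters' processing notes. Which aligner and counter were used, and whether counting used strand, is not given in the sources used here. Library totals were 26416978 to 32917763 counts, and their number limits precision to counting error plus the spread between libraries.

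Counts were fitted with edgeR 4.0.16 (R 4.3.3; TMM scaling, filterByExpr, 4 group means, robust quasi-likelihood F test), with Benjamini-Hochberg adjustment over 12736 genes and a call at an adjusted p under 0.05. Standard errors were taken as the size of the log2 fold change over sqrt(F), and intervals are approximate 95% intervals. A prior count of 2 was used only for the log2 CPM behind correlations between libraries, and did not enter the fold changes. The fitting code was tested on simulated counts. Ratios for genes with few counts carry 95% counting intervals that cover counting error only. Alternatives were RLE scaling, library totals alone, DESeq2 1.42.0, limma-voom (limma 3.58.1), other filters, a replicate block, fits of the 2 groups alone and leaving out libraries.

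Genes named in the text are a fixed list of transporters plus, for each comparison, the 6 called members that rose most and the 6 that fell most among those that reach 1 CPM in either group, except a few genes that are not reported here. Slc24a3, Slc30a4, Slc18a2 and members named for their rank in level, a string in their promoter or their place at the count limit lie outside that rule, and were chosen after their values were seen. Genes picked in 1 comparison are also given in others where the rule did not pick them, such as Slc1a3 with differentiation and Slc5a3 with TNF. For those further values no gene-by-gene check against the alternatives was made. The members, substrate classes and partner genes were chosen with earlier results of these data known. Substrate classes were assigned by family and member from general knowledge.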

Additional observations from a re-analysis of the deposited data

How the results depend on the processing

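The members called higher ranged, when libraries were left out, from 71 to 78 for differentiation, 43 to 66 for TNF, 31 to 43 for the siRNA and 63 to 78 for TNF against the siRNA, and those called lower from 61 to 70, 37 to 43, 58 to 67 and 35 to 45. At 2-fold or more the corresponding ranges were 22 to 25, 11 to 13, 5 to 7 and 13 to 18 higher, and 23 to 28, 8 to 11, 12 to 12 and 8 to 11 lower. The low ends of 43 and 31 came without the letter C libraries, where fewer samples were fitted. With only the 153 members of at least 1000 counts, fewer genes are counted: 14 rose at least 2-fold with differentiation, 5 rose and 4 fell with TNF, 5 fell with the siRNA and 6 were higher with TNF than with the siRNA. Library totals alone moved the TNF calls to 53 higher and 59 lower. With the replicate block, 147 of 149 differentiation calls, 112 of 112 TNF calls, 114 of 114 siRNA calls and 119 of 121 calls between TNF and siRNA were kept, with 0, 5, 3 and 3 gained. With that block Slc3a2 and Slc7a1 passed with TNF (adjusted p = 0.0431 and 0.0377), Slc3a2 passed between TNF and siRNA (0.027), and Slc25a37 did not pass with differentiation (0.0564). Same-letter libraries did not deviate together: over 18 pairs the correlation of deviations ran from -0.0957 to 0.183, with 3 over 0.1, so the letters were not taken to pair libraries. No call made in both the reported fit and an alternative changed direction. Among genes named in the text, signs turned in log2 fold changes near 0 that did not pass: Slc16a1 with TNF was -0.00693 with library totals alone, Slc39a14 with the siRNA was -0.0065 with RLE, -0.00524 with library totals alone, -0.00682 with DESeq2 and -0.00889 with no filter, and Slc25a5 between TNF and siRNA was -0.0217 with library totals alone. When libraries were left out, signs also turned for Slc12a2 with TNF (-0.0928 to 0.0251), Slc39a14 (-0.0376 to 0.0588), Slc3a2 (-0.0632 to 0.0155) and Slc7a5 (-0.061 to 0.0614) with the siRNA, and, between TNF and siRNA, Slc25a5 (-0.0263 to 0.0384), Slc30a1 (-0.0784 to 0.0395), Slc1a5 (-0.0165 to 0.0717), Slc16a3 (-0.118 to 0.0509) and Slc25a20 (-0.107 to 0.0174). The ranges in brackets run over the reported fit and all 17 alternatives, not over left-out libraries alone. Over all members, whether or not they passed in either fit, signs turned in at most 11 members in any 1 comparison and alternative. The cause of these changes was not tested. Genes with few counts, such as Slc6a19, Slc10a6 and Slc44a4, are limited by depth.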

Other observations

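Among transporters below 100 counts, too few for a test to be read here, Slc39a4, a zinc importer, had 0 counts over the 3 proliferation libraries and 0 over the 3 control libraries, 50 over the TNF libraries (16, 23 and 11) and 1 over the siRNA libraries. Slc39a12, another zinc transporter, had 1 count in proliferation, 60 in control, 7 in TNF and 5 in siRNA libraries. The anion exchanger Slc26a7 had 0, 39, 9 and 10 counts in the same order, and the sulphate transporter Slc13a1 had 1, 33, 9 and 4. Slc26a4, the iodide and chloride transporter pendrin, had 4, 11, 34 and 4. The choline transporter Slc5a7 had 48, 9, 20 and 14. The muscle glucose transporter Slc2a4 had 29, 28, 10 and 14 counts, and the sodium-calcium exchanger Slc8a3 had 6, 11, 3 and 10. These rows were singled out after their counts were seen.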
